A study of Mus musculus with 15 samples.

Results

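Day 2 primordial germ cell-like cells (D2PGCLCs) were compared with the naive embryonic stem cells (ESCs) from which they had been derived, gene by gene, in 6 of the 15 RNA-seq samples of the series. The 3 ESC samples and the 3 D2PGCLC samples were taken by their labels, and all 55536 genes of the count table were considered, of which 18090 passed the filter on low counts and were tested. Both groups belonged to 1 mouse ESC line, a clone with a Stella-eGFP reporter and doxycycline (Dox)-inducible transgenes for Prdm1, Prdm14, Tfap2c and Nanog, abbreviated 4TF in the labels. The line is therefore 1 clone, and the ESC controls carried the reporter, the 4 transgenes and the reverse transactivator as well.

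ESCs were grown in 2i and LIF, that is, with the MEK inhibitor PD0325901 at 1 µM, the GSK3 inhibitor CHIR99021 at 3 µM and leukemia inhibitory factor at 1000 U/ml, on poly-L-ornithine and laminin. On the way to D2PGCLCs the cells passed 48 h as epiblast-like cells (EpiLCs) in Activin A at 20 ng/ml and bFGF at 12 ng/ml, and were then aggregated for 2 days in serum-replacement medium with Dox at 2 µg/ml and no added cytokines. D2PGCLCs were sorted as live Stella-eGFP+ cells, and no sort is described for the ESCs. The medium, the aggregation, Dox and the sort thus differed together with the group, and their parts in any difference cannot be told apart. Levels of the 3 EpiLC samples are given beside single genes as the intermediate state.

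Primordial germ cells (PGCs) are the embryonic precursors of sperm and eggs, and in the mouse they arise from epiblast cells in which PRDM1, PRDM14 and TFAP2C act together. Specified PGCs regain several transcription factors of naive pluripotency, hold back somatic genes, and later erase most of their DNA methylation and open genes of the germline program. Naive ESCs resemble the epiblast before implantation. They are held in that state by the 2 inhibitors and LIF, which dampen ERK signaling, stabilize β-catenin and activate STAT3.

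The ESC libraries held between 22555021 and 29790085 counted reads and the D2PGCLC libraries between 28907803 and 34808685, so 3 reads, taken here as the limit that a count of 0 allows, corresponded to between 0.0900 and 0.132 CPM (counts of a gene scaled to 1e+06 reads per library) in these libraries. CPM values were scaled by edgeR's TMM factors, and they compare 1 gene between samples, not different genes. Pairs of replicates had a chi-square per degree of freedom of 8.82 to 17.3 in ESCs, 17.1 for D2PGCLC replicates 1 and 3, and 25.7 and 30.7 for the pairs with D2PGCLC replicate 2. All lay above the value near 1 of sampling noise alone, so no pair looked like 1 library deposited again. D2PGCLC replicate 2 stood apart from the other two in genes of glycolysis and of the ATF4 stress response. Results that rest on those genes are given with and without it.

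In total, 2113 genes were called higher in D2PGCLCs (11.7% of those tested) and 2290 lower (12.7%), or 24.3% in either direction. Counts of list members given below are to be read against these shares, which several small lists come close to. A gene was called when edgeR's quasi-likelihood test gave a Benjamini-Hochberg adjusted p under 0.05 over all genes and the log2 fold change was beyond 1 in size. The median log2 fold change over all genes tested was -0.00035. More than 4-fold differences were fitted for 1123 of the higher and 1249 of the lower genes, and more than 64-fold differences for 138 and 74. Nothing in the labels says that the replicates came from separate cultures, so the p-values measure the spread between these samples, which may be technical. As in any bulk RNA-seq, a lower value may mean fewer cells that express a gene or less RNA per cell, and these cannot be told apart.

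**Figure D1:**
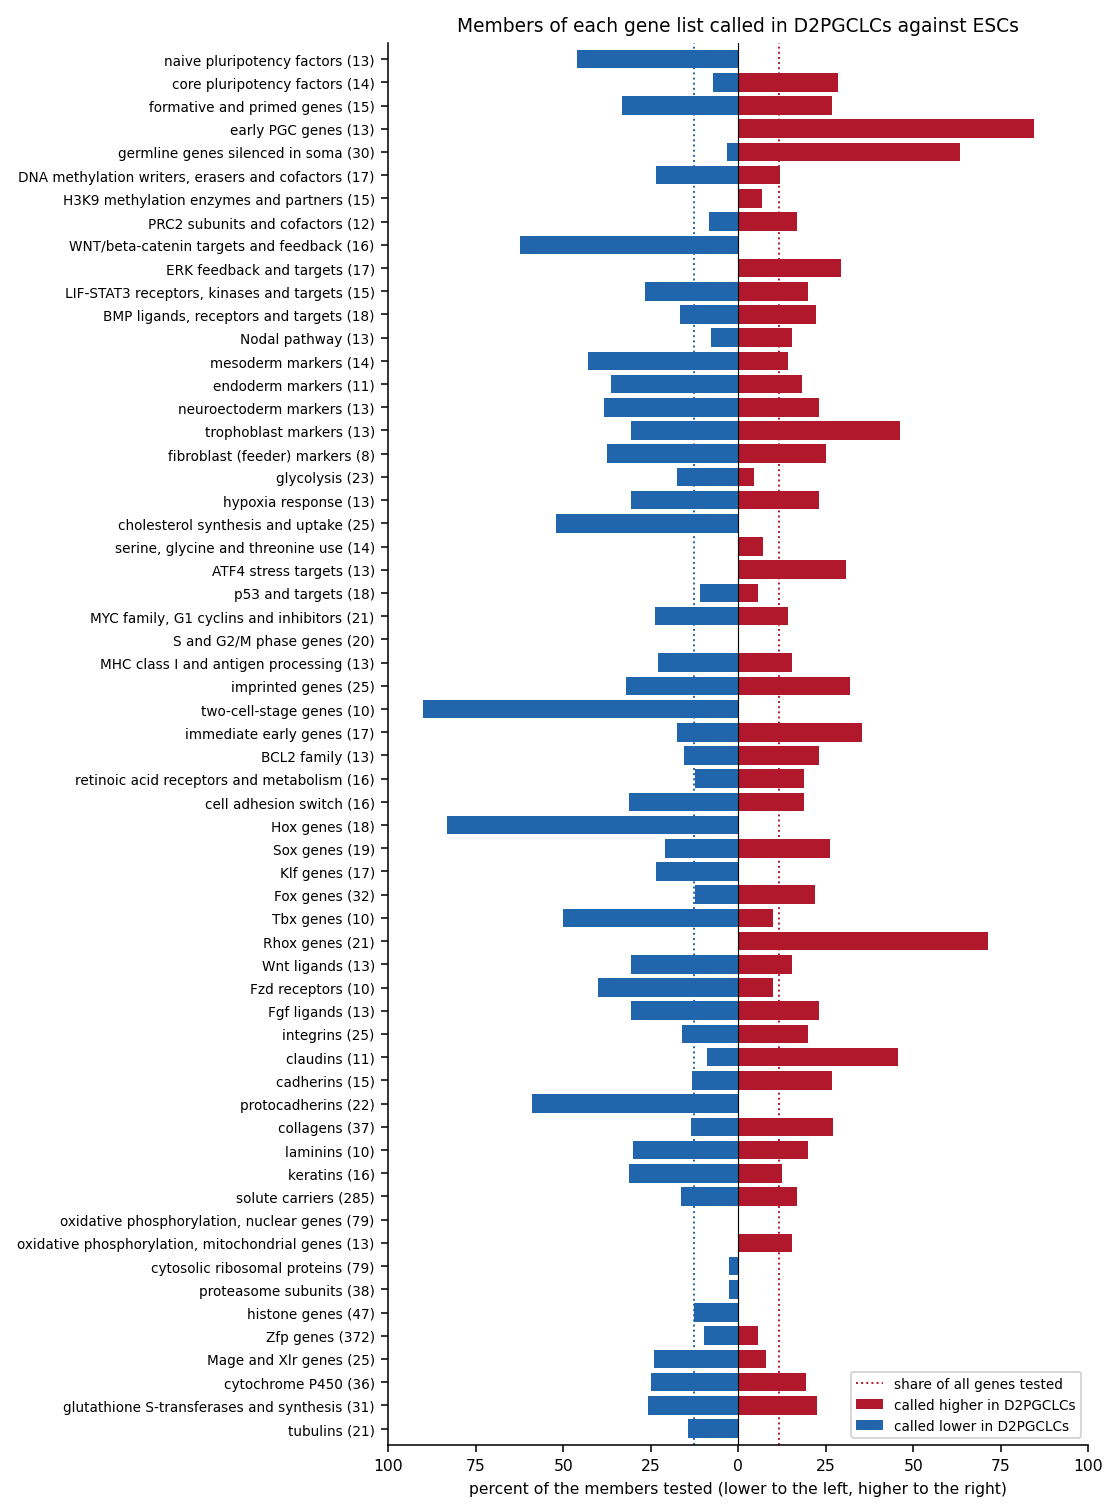
Percent of the tested members of each gene list that were called higher (red, to the right) or lower (blue, to the left) in D2PGCLCs than in ESCs, with the number tested in parentheses and the shares over all genes as dotted lines. Early PGC, germline and Rhox genes stand out to the right, and 2-cell-stage, Hox, WNT target, protocadherin and cholesterol genes to the left, while S and G2/M phase genes and nuclear oxidative phosphorylation genes have no called member.

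The naive pluripotency factors did not move together. Of 13 members, 6 were lower and none was higher, where 12.7% and 11.7% of all genes were, and the median log2 fold change was -0.60. Without D2PGCLC replicate 2 *Nr0b1* came to be called higher (1.07). *Klf4*, a transcription factor downstream of LIF, measured 171, 177 and 170.5 CPM in the 3 ESC samples and 6.16, 6.27 and 5.55 CPM in the 3 D2PGCLC samples, with a mean of 16.2 CPM in EpiLCs. The D2PGCLC values lay far below every ESC value and below the EpiLC mean (log2 fold change -4.85, SE 0.16, edgeR adjusted p = 4.4e-14). *Tfcp2l1*, another factor that sustains the naive state, went from 655, 703 and 696 CPM in ESCs to 138, 137 and 118 CPM in D2PGCLCs, and fell by 2.39 on the log2 scale (SE 0.13), although the D2PGCLCs stood 2.54 log2 units above EpiLCs. *Tbx3* fell by 3.14 on the log2 scale, *Gbx2* fell by 3.08, *Spic* fell by 2.48 and *Fgf4*, the autocrine FGF of pluripotent cells, fell by 1.56.

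Beside these, *Esrrb*, an orphan nuclear receptor of the same network, measured 587, 583 and 600.4 CPM in ESCs, 649.5, 578 and 631 CPM in D2PGCLCs and 66.9 CPM on average in EpiLCs. The ESC and D2PGCLC ranges overlapped, and the log2 difference of 0.07 (SE 0.08) was within the replicate error. *Nr5a2*, a nuclear receptor that binds the *Pou5f1* gene, measured 111, 121 and 117 CPM in ESCs and 119, 99.1 and 134 CPM in D2PGCLCs, again overlapping, against 19.6 CPM in EpiLCs. *Klf2* had overlapping values too, with a log2 difference of -0.12 (SE 0.18). Relative to EpiLCs, 10 of the 13 members were called higher in D2PGCLCs and 3 lower, where 11.0% and 14.4% of all genes were called.

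Among the core pluripotency factors, *Pou5f1*, which encodes OCT4, measured 1091, 975 and 1012 CPM in ESCs and 944, 1034 and 1049.8 CPM in D2PGCLCs, with overlapping ranges. *Sox2* lay higher in every D2PGCLC sample but under the 2-fold line (log2 fold change 0.72, SE 0.08). The chromatin-bound factor gene *Utf1* went from 74.7, 66.0 and 66.7 CPM to 315, 264 and 282 CPM and rose by 2.05 on the log2 scale (SE 0.13). *Dppa2* rose by 1.27 and *Dppa4* by 1.16, and 4 of 14 members were higher in all. The 1 lower member was *Tdgf1*, the Nodal co-receptor CRIPTO, at 536, 541 and 521 CPM in ESCs and 129.8, 213 and 123 CPM in D2PGCLCs, with replicate 2 above the other D2PGCLC samples and still below all ESC samples.

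Genes of formative and primed pluripotency were split relative to ESCs, with 4 of 15 tested members higher and 5 lower. Relative to EpiLCs, all 15 were called lower in D2PGCLCs, where 14.4% of all genes were called lower. The de novo DNA methyltransferase gene *Dnmt3b* measured 136, 137 and 130.3 CPM in ESCs and 56.0, 54.1 and 41.8 CPM in D2PGCLCs after 1558 CPM in EpiLCs, so D2PGCLCs lay below both earlier states. Among transcription factor genes of epiblast and neural cells, *Sall2* fell by 3.46 and *Sox11* fell by 2.69 on the log2 scale relative to ESCs. *Grhl2*, an epithelial transcription factor gene, rose from 5.40, 4.87 and 5.43 CPM to 14.9, 15.6 and 17.3 CPM, with a log2 difference of -2.59 from EpiLCs. *Fgf5*, the classical marker of the formative epiblast, had 1 read in all ESC libraries together and 83 in the D2PGCLC libraries, a CPM ratio of 70.8 (95% exact counting interval 12.4 to 2830), at no more than 1.20 CPM in any D2PGCLC sample against a mean of 58.5 CPM in EpiLCs.

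**Figure D2:**
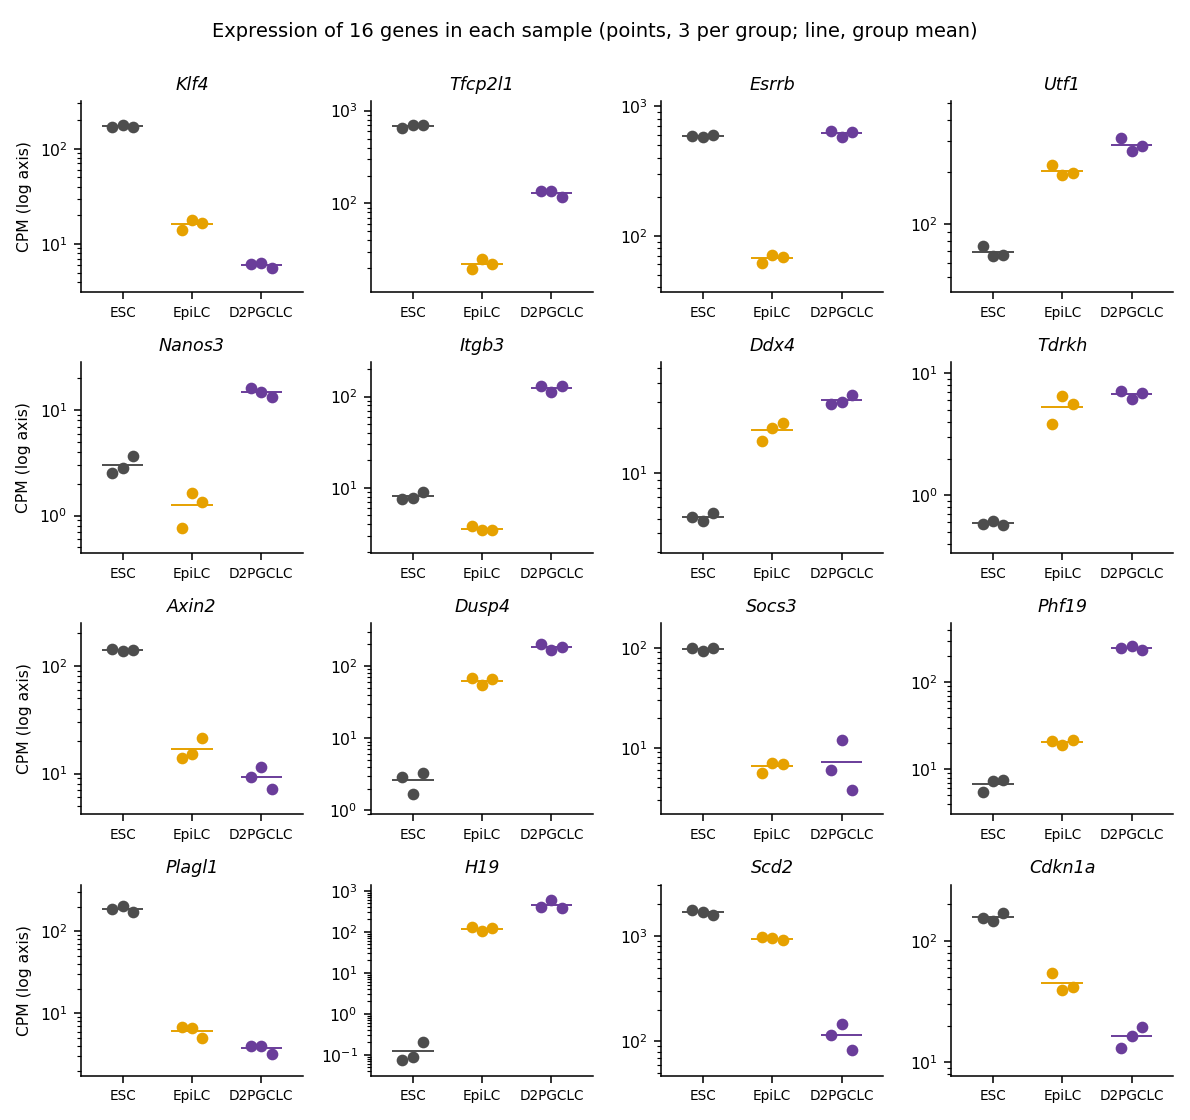
CPM on a log axis, scaled to each panel, of 16 genes in the 3 ESC, 3 EpiLC and 3 D2PGCLC samples, with points for samples and a line at each group mean. *Klf4*, *Axin2*, *Socs3* and *Plagl1* are low in both later states, *Esrrb* dips in EpiLCs and is back at its ESC level, *Itgb3* and *Nanos3* are high in D2PGCLCs alone among the 3 groups, and *H19* lies at 0.0730, 0.0877 and 0.201 CPM in ESCs and 394, 604 and 378 CPM in D2PGCLCs.

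The early PGC genes lay higher in D2PGCLCs. All 13 members had every D2PGCLC sample above every ESC sample, where 30.4% of all genes did, 11 of the 13 were called higher, and their median log2 fold change was 2.23. The count of calls was 10 with DESeq2, DESeq2 size factors, library totals alone or a mean of at least 100 counts, and also without ESC replicate 1. Without the gene of the sort gate and the transgenes, taken out after the values were seen, 7 of 9 were called higher and the median was 2.22. *Dppa3* encodes STELLA, the protein whose reporter served as the gate of the sort, so its rise from 55.5, 55.7 and 50.5 CPM to 438, 482 and 436 CPM is what the gate selected for and is no finding. Reads of *Prdm1*, *Prdm14* and *Tfap2c* could come from the Dox-induced transgenes as well as from the endogenous genes, and the counts do not separate them. *Prdm1* rose by 3.29 on the log2 scale (SE 0.12), *Tfap2c* by 2.55 (SE 0.08) and *Prdm14* by 1.06 (SE 0.11), while *Nanog*, the fourth transgene, differed by 0.28 (SE 0.11) and was not called.

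Members outside the transgenes and the gate rose as well. *Itgb3*, which encodes the integrin β3 chain (CD61) used to sort PGC-like cells, measured 7.55, 7.76 and 8.98 CPM in ESCs and 130.1, 112 and 132 CPM in D2PGCLCs, and rose by 3.94 on the log2 scale (SE 0.11, edgeR adjusted p = 3.0e-15). *Nanos3*, an RNA-binding protein that keeps PGCs alive, went from 2.52, 2.85 and 3.65 CPM to 16.3, 14.8 and 13.5 CPM, with no overlap. *Cxcr4*, the receptor that guides migrating PGCs, rose by 3.71 from under 1 CPM, and *Ifitm1* and *Ifitm3*, interferon-induced transmembrane genes that mark nascent PGCs, by 2.23 and 1.59. *Kit* (0.93) and the alkaline phosphatase gene *Alpl* (0.78) lay above ESCs in every sample, by less than 2-fold. Both were already well expressed in ESCs, *Alpl* at 266, 265 and 255 CPM.

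Germline genes that are silent in somatic cells were mostly higher as well. Of 30 members, 19 were higher and 1 was lower, where 11.7% and 12.7% of all genes were, and the median log2 fold change was 1.73. Relative to EpiLCs, only 5 members were called higher in D2PGCLCs and 4 lower, where 11.0% and 14.4% of all genes were called. *Ddx4*, the vasa RNA helicase of germ cells, measured 5.14, 4.87 and 5.43 CPM in ESCs, 28.9, 29.7 and 33.1 CPM in D2PGCLCs and 19.4 CPM on average in EpiLCs, and rose by 2.57 on the log2 scale relative to ESCs (SE 0.13). *Tdrkh*, a Tudor protein that helps to trim piRNAs at mitochondria, went from 0.584, 0.614 and 0.570 CPM to 7.23, 6.16 and 6.96 CPM, about the EpiLC mean of 5.34 CPM. *Zcwpw1*, a reader of methylated histone H3 in meiosis, rose by 2.87, *Mov10l1*, a helicase of piRNA production, by 2.27 and *Mael*, another piRNA factor, by 3.67. *Sycp1*, of the synaptonemal complex, reached 10.6, 7.42 and 12.3 CPM, and *Tdrd1*, a Tudor scaffold of piRNA granules, 1.75, 1.79 and 1.77 CPM. *Tex14*, needed for intercellular bridges of germ cells, measured 45.9, 51.5 and 49.9 CPM in ESCs and 114, 96.4 and 112 CPM in D2PGCLCs. The call of *Brdt*, a testis bromodomain protein, rested on D2PGCLC replicate 2, at 0.613, 2.47 and 0.810 CPM, and without that sample its log2 fold change went from 1.77 to 0.93. The lower member, *Hsf2bp*, fell by 1.01 and came to less than 2-fold without ESC replicate 3 (-0.93), D2PGCLC replicate 1 (-0.96) or D2PGCLC replicate 2 (-0.95), while 3 members were lower without D2PGCLC replicate 3.

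Many germline genes carry an E-box or an E2F site close to their start, the sites to which the MGA-MAX and E2F6 arms of the PRC1.6 repressor are known to bind. RefSeq promoters (GRCm38.p6, 250 bases before to 50 after each start) were found for 28 of the 30 list members. The E-box letters CACGTG, which read the same on both strands, occurred in 9 of the 17 called genes with a promoter (52.9%) and in 4 of the 11 other members (36.4%), against 8.09% of all 27025 genes with a promoter, 11.3% of all genes tested and 10.9% of all genes called higher. The E2F letters TTCCCGCC or their reverse complement GGCGGGAA occurred in 3 of the 17 (17.6%) and in 1 of the 11 other members (9.09%), against 2.52% of all genes with a promoter, 4.55% of all genes tested and 3.24% of all genes called higher. In the window before the start alone, 2 of the 17 held it (11.8%). These shares describe letters in a window and say nothing of binding. The E-boxes of 5 called genes and the E2F matches of *Ddx4* and *Tex14* are printed here to show each match in its context, with the matched letters in capitals, 5′ to 3′ on the strand of the gene.

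Ddx4 (chr13:112652322-112652351, minus strand, E-box starting 29 bases before the start): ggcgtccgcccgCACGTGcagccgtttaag
Ddx4 (chr13:112652429-112652458, minus strand, E2F letters starting 137 bases before the start): tccgtccatggGGCGGGAAgtcgcgcgccg
Mael (chr1:166238950-166238979, minus strand, E-box starting 223 bases before the start): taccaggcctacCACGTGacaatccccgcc
Slc25a31 (chr3:40708766-40708795, plus strand, E-box starting 93 bases before the start): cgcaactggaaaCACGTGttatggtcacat
Sycp1 (chr3:102936177-102936206, minus strand, E-box starting 94 bases before the start): tagagaacccggCACGTGggaagggaaatc
Taf7l (chrX:134476522-134476551, minus strand, E-box starting 49 bases before the start): accctcttatacCACGTGacagaactcgcc
Tex14 (chr11:87404942-87404971, plus strand, E2F letters starting 112 bases before the start): accccttgcttTTCCCGCCctcgcggggga

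Among these genes, *Taf7l*, a testis paralog of a general transcription factor subunit, measured 0.511, 0.482 and 0.436 CPM in ESCs and 1.44, 2.19 and 2.28 CPM in D2PGCLCs, and *Slc25a31*, a germ cell ADP/ATP carrier, measured 0.438, 0.0438 and 0.268 CPM in ESCs and 1.56, 0.824 and 2.49 CPM in D2PGCLCs. Both were higher without overlap, and *Taf7l* differed by -1.50 on the log2 scale from EpiLCs, where its mean was 5.58 CPM (edgeR adjusted p = 6.8e-04). The X-linked Rhox homeobox cluster was higher too, in 15 of 21 members tested and in none lower, with a median of 3.73. That count came to 11 without D2PGCLC replicate 1 (median 2.57) and to 12 without ESC replicate 1 or ESC replicate 2. *Rhox6* went from 0.328, 1.05 and 0.938 CPM to 66.0, 70.7 and 90.6 CPM, with 1.74 CPM in EpiLCs. Members of the Rhox2, Rhox3, Rhox4 and Rhox7 groups are near-identical copies whose reads may be split between them, so their values are uncertain, and with only the 6 samples in the fit, where 10 passed the filter, 9 were higher.

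**Figure D3:**
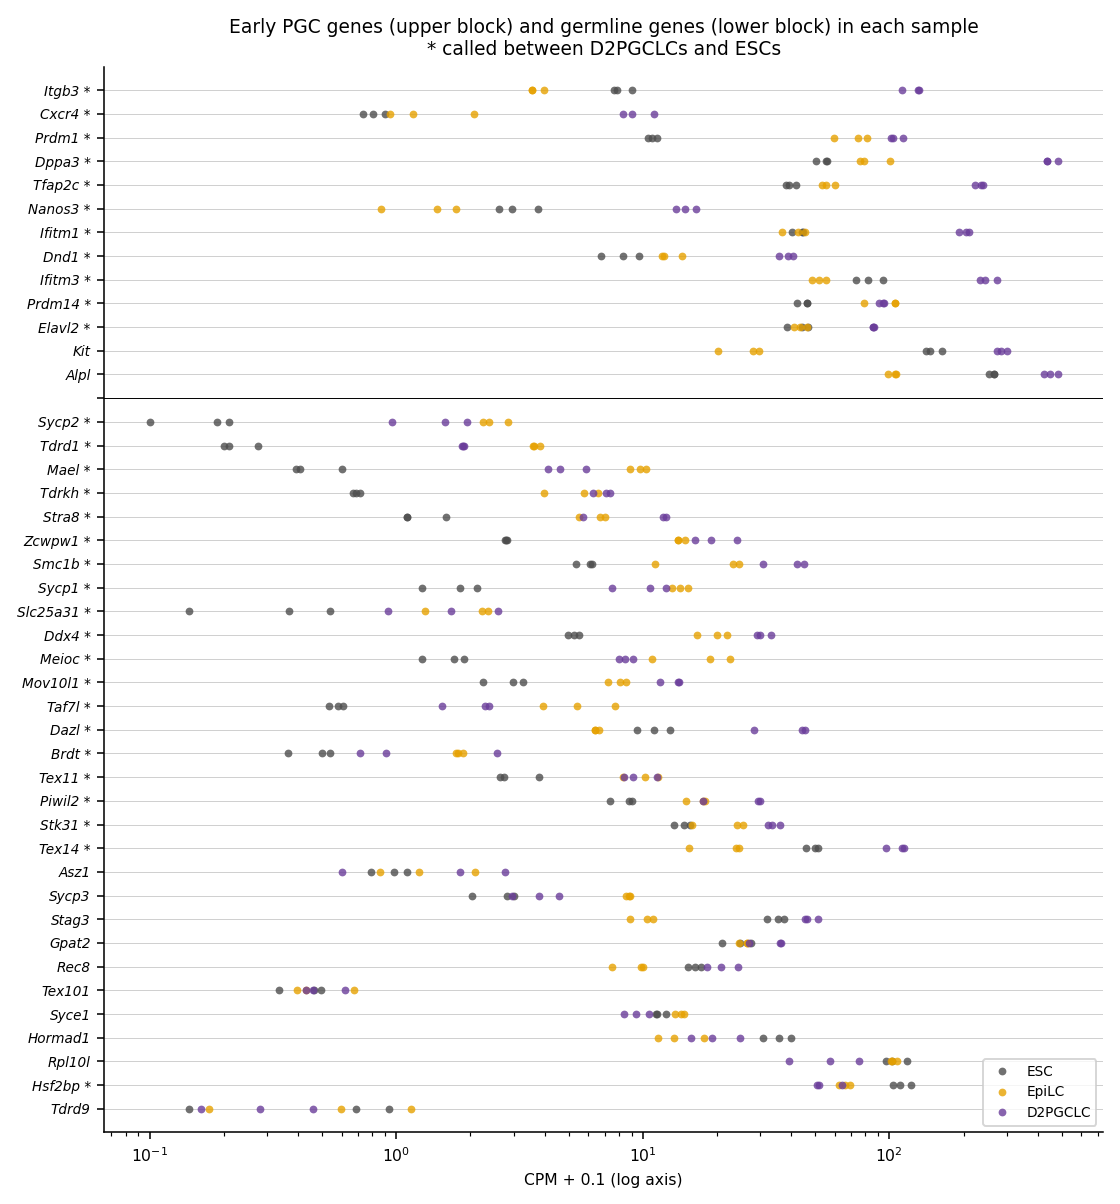
CPM plus 0.1 on a log axis of the 13 early PGC genes (upper block) and 30 germline genes (lower block) in each ESC (grey), EpiLC (yellow) and D2PGCLC (purple) sample, with called genes marked by an asterisk. In the upper block the D2PGCLC points lie right of the ESC points in every row, and in the lower block the purple points of several called genes, such as *Mael*, *Tdrd1* and *Taf7l*, lie left of the yellow ones.

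For the 3 signals that 2i and LIF act on, RNA levels of target genes were compared, and signaling itself was not measured. WNT and β-catenin targets and feedback genes fell: 10 of 16 tested members were lower, none was higher and the median was -1.91. The lower count ranged from 8 to 11 when 1 of the 6 samples was left out. It was 12 with library totals alone and 5 of 10 tested with a mean of at least 100 counts. *Axin2*, a negative feedback regulator induced by β-catenin, measured 142, 137 and 139.7 CPM in ESCs and 9.29, 11.5 and 7.26 CPM in D2PGCLCs, with no overlap (log2 fold change -3.91, SE 0.21). *Sp5*, a transcription factor gene induced by WNT, went from 37.4, 35.9 and 35.6 CPM to 0.153, 0.287 and 0.0300 CPM, near the limit of 3 reads. Its EpiLC mean was already 0.397 CPM. *Cdx1*, a posterior homeobox gene, fell by 5.19, and *Ccnd1*, the gene of cyclin D1, fell by 2.15. *Lef1* (-0.37, SE 0.38) and *Znrf3* (0.07, SE 0.12) overlapped between the groups. The calls of *Nkd2* and *Rnf43* were lost when single samples were left out, *Nkd2* without ESC replicate 1 or 2 or D2PGCLC replicate 3 (log2 fold change -0.82 without the last) and *Rnf43* when any of the 6 samples except D2PGCLC replicate 2 was left out (edgeR adjusted p = 0.14 without D2PGCLC replicate 3).

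Genes induced by ERK, which lies downstream of the MEK that PD0325901 inhibits, were higher in 5 of 17 members and lower in none (median 0.42). Whether the inhibitor set their level in ESCs was not tested. *Dusp4*, an ERK-induced phosphatase that acts back on ERK, measured 2.88, 1.67 and 3.28 CPM in ESCs and 205, 168 and 186 CPM in D2PGCLCs, which was also above the EpiLC mean of 63.0 CPM. *Dusp6*, another such phosphatase, rose from 3.87, 3.29 and 4.49 CPM to 78.4, 73.6 and 80.1 CPM, close to the 69.7 CPM of EpiLCs. *Egr1*, an immediate early transcription factor gene, went from 0.292, 0.482 and 0.268 CPM to 22.2, 21.5 and 11.8 CPM, against an EpiLC mean of 262 CPM. *Spry2* (-0.44, SE 0.10) and *Spry4* (0.31, SE 0.16), Sprouty inhibitors of the same pathway, and *Etv4* (0.13, SE 0.15) were not called.

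LIF and STAT3 genes were split, with 3 of 15 tested members higher and 4 lower. *Socs3*, the STAT3-induced inhibitor of the receptor, fell from 99.4, 92.5 and 99.4 CPM to 6.04, 11.8 and 3.78 CPM, and *Stat3* itself from 165, 154 and 167 CPM to 22.4, 22.1 and 21.6 CPM. *Bcl3*, a STAT3-responsive IκB family gene, fell by 3.62 on the log2 scale (SE 0.22). The receptor chain genes *Lifr* (0.27, SE 0.12) and *Il6st* (0.91, SE 0.11) were not called. *Socs2*, of the same inhibitor family, rose from 68.4, 65.4 and 61.8 CPM to 189, 202 and 179 CPM. *Cish* was called higher (1.04) but not without D2PGCLC replicate 2 (0.75) or ESC replicate 2 (0.97).

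BMP genes, whose ligands are the natural inducers of PGCs and were not added to the medium here, had 4 of 18 tested members higher and 3 lower. That was 22.2% and 16.7%, against 11.7% and 12.7% of all genes. *Id2*, a BMP-responsive inhibitor of helix-loop-helix factors, rose from 1.31, 0.964 and 1.24 CPM to 6.22, 9.60 and 9.33 CPM, and *Msx2* by 1.95 on the log2 scale. *Id3* (-0.29, SE 0.14) was not called. *Bmp4*, an inducer of PGCs, measured 27.7, 24.2 and 29.8 CPM in ESCs and 51.1, 58.8 and 57.8 CPM in D2PGCLCs, a log2 fold change of 1.04 that came to 0.96 without ESC replicate 2. The lower members *Bmp7* and *Id1* lost their calls without D2PGCLC replicate 3 (-0.89 and -0.92), and *Id1* also without ESC replicate 1 (-0.87), which leaves *Msx1*, a homeobox target of BMP, with 95 reads in ESCs and 2 in D2PGCLCs (CPM ratio 55.7 in favour of ESCs, 95% exact counting interval 15.0 to 466). In the Nodal pathway, 2 of 13 tested members were higher and 1 was lower (15.4% and 7.69%), against 11.7% and 12.7% of all genes. *Lefty1*, a Nodal antagonist, rose from 30.1, 27.9 and 30.1 CPM to 88.3, 109.9 and 75.4 CPM, and *Skil*, a TGFβ-induced corepressor gene called at 1.08, came to 0.95 without D2PGCLC replicate 2.

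Many regulators of embryonic lineages were at or below a few CPM in both groups, and Hox, mesoderm, endoderm and neuroectoderm genes held more lower than higher members in D2PGCLCs. Of 18 Hox genes tested, 15 were lower and none was higher (median -3.69). EpiLCs were already low in them. The summed Hox level was 36.3, 37.3 and 40.3 CPM in ESCs, 7.12, 4.93 and 4.99 CPM in EpiLCs and 5.76, 5.05 and 6.21 CPM in D2PGCLCs. Relative to EpiLCs, 4 Hox genes were called higher in D2PGCLCs and 2 lower. *Hoxc13*, a posterior Hox gene, measured 6.75, 7.85 and 7.64 CPM in ESCs and 0.306, 0.287 and 0.0600 CPM in D2PGCLCs, and *Hoxd9* measured 4.01, 4.38 and 3.62 CPM in ESCs and 0.123, 0.430 and 0.0900 CPM in D2PGCLCs. *Hoxc12* was at 0 in all D2PGCLC samples and at 2.30, 1.97 and 3.15 CPM in ESCs, which makes it at least 25.6-fold lower against a limit of 3 reads per library. Mesoderm markers were lower in 6 of 14 tested members and higher in 2, a count of lower members that came to 3 without D2PGCLC replicate 1 or replicate 3. *T* (brachyury), the primitive streak factor and a WNT target, went from 14.8, 15.2 and 14.5 CPM to 0, 0.179 and 0.0600 CPM, with 0.248 CPM on average in EpiLCs. *Lhx1*, a homeobox gene of the node and of kidney mesoderm, was among the higher members, with 2 reads in ESCs and 414 in D2PGCLCs (CPM ratio 177, 95% exact counting interval 48.6 to 1463). Endoderm markers were higher in 2 of 11 and lower in 4, with log2 fold changes from -5.67 to 3.93. The higher count was 1 without D2PGCLC replicate 2 or without any one of the ESC replicates. Among the lower ones, *Gata4*, a transcription factor gene of primitive endoderm, measured 3.94, 5.00 and 4.12 CPM in ESCs and 0.460, 0.645 and 0.390 CPM in D2PGCLCs, and the yolk sac genes *Afp* and *Ttr* had at most 2 reads and no read in any of the 6 samples. Neuroectoderm markers were higher in 3 of 13 and lower in 5, with log2 fold changes from -3.17 to 4.08. The count of lower members came to 3 without ESC replicate 2, ESC replicate 3, D2PGCLC replicate 1 or D2PGCLC replicate 3. The count of higher members stayed at 3 in each of these fits. Among the lower members, *Nes*, the neural stem cell filament nestin, fell from 79.5, 73.0 and 83.7 CPM to 18.1, 15.6 and 17.2 CPM.

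Trophoblast genes were the lineage list with the most higher members, at 6 of 13 tested, with 4 lower. *Gata3*, a trophoblast transcription factor gene, had 1 read in ESCs and 418 in D2PGCLCs, which measured 4.54, 3.83 and 4.89 CPM, a CPM ratio of 357 (95% exact counting interval 63.6 to 14116). *Gcm1*, a placental transcription factor gene outside the list that was named by its fold change, had 2 reads in ESCs and 794 in D2PGCLCs, at 7.23, 12.7 and 6.12 CPM, a CPM ratio of 339 (95% exact counting interval 93.4 to 2801), with 6.38 CPM in EpiLCs. *Esx1*, a homeobox gene of the placenta, rose from 1.06, 1.27 and 1.21 CPM to 11.6, 15.4 and 9.81 CPM, and *Gata2* from 3.47, 3.55 and 3.65 CPM to 11.2, 16.6 and 7.68 CPM. Other defining members fell: *Cdx2*, which specifies trophoblast, from 1.64, 1.80 and 2.65 CPM to 0.398, 0.323 and 0.150 CPM, *Tfap2a* fell by 4.62 on the log2 scale and the keratin gene *Krt8* from 25.6, 26.9 and 25.1 CPM to 4.78, 6.63 and 4.95 CPM. *Eomes* (-0.19, SE 0.17) was not called, and *Tpbpa* was at 0 in the 6 samples. *Sox15*, an SRY-related gene expressed in pluripotent and trophoblast cells, rose from 13.1, 13.3 and 13.6 CPM to 79.5, 100.2 and 85.5 CPM, with 12.7 CPM in EpiLCs.

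Fibroblast genes were checked because the protocols name feeder cells for ESCs of another culture condition. Their summed level was between 10.4 and 12.2 CPM in ESCs and between 3.06 and 4.91 CPM in D2PGCLCs over the 13 markers, of which 5 did not pass the filter. Of the 8 tested, 3 were lower and 2 higher (1 without ESC replicate 1, ESC replicate 2 or D2PGCLC replicate 2). *Thy1*, a surface gene of fibroblasts that other cells share, fell from 5.87, 5.96 and 5.56 CPM to 0.276, 1.11 and 0.420 CPM. *Col1a1*, the main fibroblast collagen gene, lay at or below 2.61 CPM in each of the 6 samples, and *Prrx1*, *Twist2* and *S100a4* had no read in the 6 samples.

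In the DNA methylation list, 4 of 17 members were lower (23.5%, against 12.7% of all genes) and 2 were higher (11.8%, against 11.7%). *Uhrf1*, the factor that brings DNMT1 to newly replicated DNA, measured 740.2, 708 and 785 CPM in ESCs and 287, 267 and 287 CPM in D2PGCLCs, and fell by 1.41 on the log2 scale (SE 0.10). Its paralog *Uhrf2* went from 40.8, 40.3 and 42.6 CPM to 132, 122 and 130.4 CPM and rose by 1.63 (SE 0.08). *Zfp57*, the zinc finger protein that protects imprints, fell from 397, 382 and 399 CPM to 163, 145 and 143 CPM, above the EpiLC mean of 77.3 CPM. *Gadd45a*, a stress-induced gene tied to demethylation, rose from 7.33, 5.17 and 8.54 CPM to 111, 85.2 and 139 CPM. *Dnmt1* (0.26, SE 0.08) and *Tet1* (0.34, SE 0.13) lay within 2-fold of ESCs.

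PRC2, the complex that methylates histone H3 at lysine 27, had 2 of 12 tested genes higher and 1 lower. Those shares, 16.7% and 8.33%, were not far from the 11.7% and 12.7% of all genes. The core subunit gene *Ezh2* measured 389, 372 and 393 CPM in ESCs and 367, 389 and 382 CPM in D2PGCLCs and was not called, and *Eed*, another core subunit gene, lay below ESCs in every sample by slightly less than 2-fold (-0.91, SE 0.07). The called members were accessory subunits. *Phf19*, a PRC2-recruiting Tudor protein, measured 5.47, 7.23 and 7.54 CPM in ESCs, 20.6 CPM on average in EpiLCs and 245, 259.9 and 233 CPM in D2PGCLCs, a rise of 5.19 on the log2 scale (SE 0.11, edgeR adjusted p = 2.2e-16). *Jarid2* rose by 1.22 and *Epop*, an accessory subunit of pluripotent cells, fell from 1149, 979.5 and 998 CPM to 430.0, 368 and 436 CPM. Of the 15 enzymes and partners of histone H3 lysine 9 methylation, 1 was called, *Suv39h1*, which rose from 13.0, 14.6 and 15.7 CPM to 48.8, 45.9 and 51.2 CPM.

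Imprinted genes moved in both directions, with 8 of 25 tested members higher and 8 lower. *H19*, a noncoding RNA of the maternal chromosome, had the highest fold change of the named genes, from 0.0730, 0.0877 and 0.201 CPM in ESCs to 394, 604 and 378 CPM in D2PGCLCs, with 119 CPM in EpiLCs. *Peg10*, a retrotransposon-derived placental gene, rose from 23.7, 27.4 and 21.8 CPM to 222, 366 and 181 CPM, and *Peg3*, a zinc finger gene, from 153, 159 and 174 CPM to 761, 579 and 639 CPM. The EpiLC mean of *Peg3* was already 775 CPM. *Plagl1*, a zinc finger gene of an imprinted growth network, had the most negative fold change of the list, at 187, 201 and 172 CPM in ESCs and 3.98, 3.98 and 3.21 CPM in D2PGCLCs. Of the noncoding RNAs of an imprinted cluster on chromosome 12, *Meg3* fell by 2.81, *Rian* fell by 2.86 and *Mirg* fell by 2.04, with no overlap, and they may share reads because they lie close together on 1 strand. *Kcnq1ot1*, an antisense RNA, went from 73.9, 81.0 and 57.0 CPM to 22.4, 23.1 and 8.01 CPM, and since the strand setting of the counting is not given in the sources used here, reads of *Kcnq1* cannot be told apart from it. *Igf2r* was called higher at 1.02 and came under 2-fold without ESC replicate 2 (0.98) or D2PGCLC replicate 1 (0.95). The call of *Dlk1* (-1.77) was lost when any of the 6 samples except D2PGCLC replicate 2 was left out, with edgeR adjusted p = 0.13 without D2PGCLC replicate 3, and that of *Igf2* was lost without D2PGCLC replicate 1 (edgeR adjusted p = 0.068).

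Genes of cholesterol synthesis were mostly lower in D2PGCLCs. Of the 25 genes of cholesterol synthesis and uptake, 13 were lower, none was higher, 23 had every D2PGCLC sample below every ESC sample (29.8% of all genes did), and the median log2 fold change was -1.01. *Insig1*, a sterol sensor of the SREBP pathway, measured 320.4, 328 and 316 CPM in ESCs and 62.9, 93.7 and 54.2 CPM in D2PGCLCs, with replicate 2 the highest of the 3. *Dhcr7*, which makes cholesterol from its last precursor, fell from 145, 147 and 127 CPM to 34.4, 49.5 and 30.2 CPM. *Sc5d* came under 2-fold without ESC replicate 2 (-0.96), and *Stard4*, called at -1.01, came under it without ESC replicate 3 (-0.92), D2PGCLC replicate 1 (-0.98) or D2PGCLC replicate 3 (-0.90). *Scd2*, a desaturase of fatty acids, had the largest loss of CPM of any called gene and went from 1744, 1679 and 1579 CPM to 116, 146 and 83.0 CPM (log2 fold change -3.86, SE 0.21), and *Acly*, which supplies acetyl-CoA, from 1312, 1358 and 1451 CPM to 577, 594 and 559 CPM.

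Glycolysis genes depended on which D2PGCLC sample was read. Their summed level was 17341, 16877 and 17820.4 CPM in the 3 ESC samples and 11695, 18081 and 11351 CPM in the 3 D2PGCLC samples, so that replicate 2 lay above every ESC sample and the other two below. With all samples, 4 of 23 members were lower and 1 was higher. Without D2PGCLC replicate 2, 7 were lower and 1 was higher, and the median log2 fold change went from -0.41 to -0.72. *Ldha*, the lactate dehydrogenase of fermenting cells, measured 1188, 1160.0 and 1184 CPM in ESCs and 238, 848 and 192 CPM in D2PGCLCs (log2 fold change -1.47, SE 0.53, edgeR adjusted p = 0.028), and its call was lost by edgeR's adjusted p when any of the 6 samples except D2PGCLC replicate 2 was left out (up to 0.12, without D2PGCLC replicate 1). *Hk2*, a hexokinase gene, fell in every D2PGCLC sample, from 606, 574 and 623 CPM to 206, 288 and 187 CPM. *Ldhb*, the other lactate dehydrogenase chain, rose from 151, 139 and 150.1 CPM to 549, 614 and 597 CPM, all far above ESCs. Hypoxia genes had 3 of 13 members higher and 4 lower, and without D2PGCLC replicate 2 the counts were 2 and 3, while 2 were lower without D2PGCLC replicate 3. *Ndrg1*, a hypoxia-induced gene, fell from 106, 104 and 98.2 CPM to 12.7, 29.9 and 12.1 CPM, and *Vegfa* rose from 41.9, 35.1 and 39.2 CPM to 117, 84.2 and 119 CPM.

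The same sample was the low one in ATF4 targets, genes of the amino acid and stress response. Their summed level was 2375, 2375 and 2317 CPM in ESCs and 3769, 2358 and 4456 CPM in D2PGCLCs, with replicate 2 inside the ESC range. Of 13 members, 4 were higher and none was lower. The higher count was 5 without D2PGCLC replicate 2, ESC replicate 1 or ESC replicate 3, and 3 without D2PGCLC replicate 3. Relative to EpiLCs, 10 members were called higher and none lower, where 11.0% and 14.4% of all genes were called. *Chac1*, which breaks down glutathione, measured 7.74, 10.2 and 8.48 CPM in ESCs and 64.3, 19.6 and 86.5 CPM in D2PGCLCs, with no overlap. *Pycr1*, a proline synthesis gene, rose from 50.4, 45.4 and 51.7 CPM to 161, 91.9 and 182 CPM. *Slc7a11*, the cystine transporter, had D2PGCLC values of 10.4, 1.11 and 17.2 CPM, the second of which lay inside the ESC range of 0.693, 1.23 and 1.47 CPM. *Trib3*, called at 1.39, had 88.9, 26.3 and 135 CPM in D2PGCLCs and 32.8, 31.3 and 31.2 CPM in ESCs, so that replicate 2 lay below every ESC sample, and its call was lost without D2PGCLC replicate 3 (0.86, edgeR adjusted p = 0.081). What made replicate 2 differ was not tested.

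Oxidative phosphorylation genes of the nucleus stayed within 2-fold of ESCs or missed the adjusted p, with none of 79 called by edgeR (0 also with DESeq2, and 25 at an unadjusted p under 0.05) and a median of -0.05. Without ESC replicate 1 or without D2PGCLC replicate 2, 1 member was called. Of the 13 genes of the mitochondrial genome, 7 lay above ESCs without overlap and the median was 0.67. The 2 called higher, *mt-Atp6* (1.16) and *mt-Nd3* (1.98), were at no more than 5.16 CPM and 0.645 CPM in D2PGCLCs, and both calls were lost without ESC replicate 3 or D2PGCLC replicate 2, that of *mt-Nd3* also without replicate 1 of either group. Cytosolic ribosomal protein genes lay slightly higher, with a median of 0.34, 56 of 79 above without overlap (30.4% of all genes were), none called higher and 2 called lower.

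**Figure D4:**
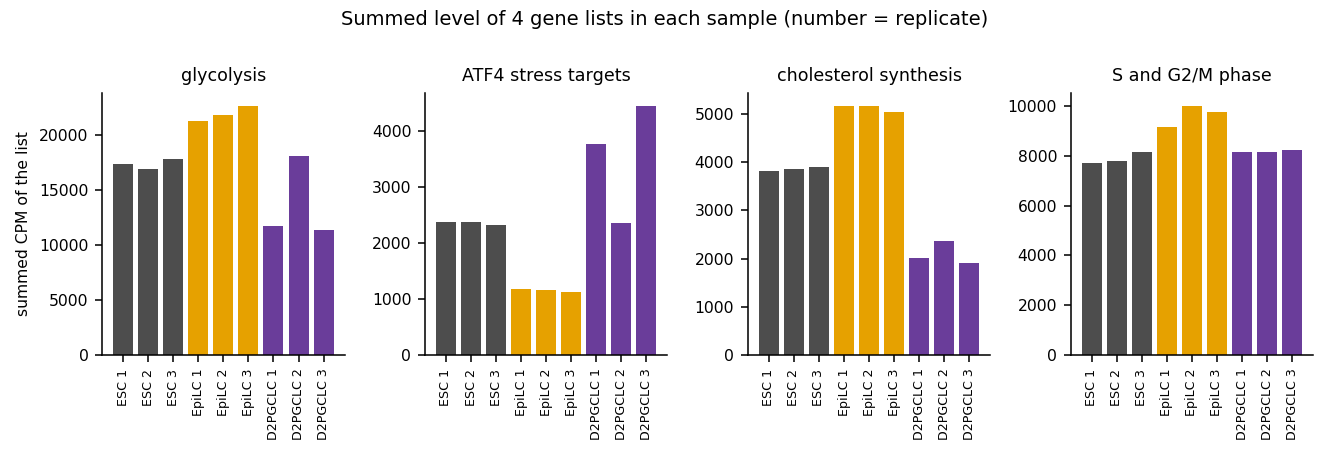
Summed CPM, on linear axes from 0, of the glycolysis, ATF4 target, cholesterol and S and G2/M phase lists in each ESC (grey), EpiLC (yellow) and D2PGCLC (purple) sample. D2PGCLC replicate 2 is the highest of its group for glycolysis and the lowest for ATF4 targets, whereas all 3 D2PGCLC samples are low for cholesterol genes and all 6 ESC and D2PGCLC samples lie between 7691 and 8228 CPM for S and G2/M genes.

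Cell cycle calls were made among G1 regulators and not among S, G2 and M phase genes. None of the 20 S and G2/M genes was called by edgeR (0 also with DESeq2, and 8 at an unadjusted p under 0.05), and *Mcm3* (-0.09), *Ccnb1* (-0.12) and *Cdk1* (0.05) were close to 0 on the log2 scale. Of 21 MYC and G1 genes, 3 were higher and 5 lower (14.3% and 23.8%, against 11.7% and 12.7% of all genes). *Cdkn1a*, the p21 inhibitor and a p53 target, fell from 155, 145 and 171 CPM to 13.2, 16.4 and 19.4 CPM (log2 fold change -3.27, SE 0.15), and *Cdk6* from 65.0, 59.1 and 61.8 CPM to 11.5, 9.78 and 10.5 CPM. *Rb1*, the retinoblastoma gene, rose from 5.62, 5.87 and 5.36 CPM to 29.7, 36.0 and 27.4 CPM, *Ccnd3* by 1.40 and *Mycn* by 1.36, while *Ccnd1* fell by 2.15. p53 targets as a list did not follow *Cdkn1a*, with 1 of 18 tested higher (2 without D2PGCLC replicate 2) and 2 lower and a median of 0.01. *Trp53* itself lay higher in every D2PGCLC sample by less than 2-fold (0.63, SE 0.08), and *Perp*, a p53-induced membrane gene, rose from 1.53, 0.658 and 1.31 CPM to 13.9, 15.2 and 18.5 CPM.

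Cell death genes of the BCL2 family had 3 of 13 members higher and 2 lower (23.1% and 15.4%, against 11.7% and 12.7% of all genes). *Bcl2l11*, the death promoter BIM, rose from 9.96, 9.64 and 8.95 CPM to 79.9, 64.1 and 72.3 CPM, near the EpiLC mean of 68.2 CPM. *Bik*, another death promoter, rose from 0.219, 0.0438 and 0.0335 CPM to 5.88, 7.56 and 6.60 CPM, and *Bak1*, an effector, fell from 88.0, 73.7 and 82.4 CPM to 34.0, 37.2 and 36.8 CPM. Of 13 genes of antigen presentation, 3 were lower (23.1%) and 2 higher (15.4%), against 12.7% and 11.7% of all genes. Relative to EpiLCs, 10 of them were called lower and none higher, where 14.4% and 11.0% of all genes were called. The class I heavy chain gene *H2-K1* fell from 65.5, 61.3 and 64.3 CPM to 13.2, 21.3 and 9.36 CPM and *H2-D1* fell by 2.91 on the log2 scale, whereas *Irf1*, an interferon regulatory factor gene, rose by 1.43.

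Of 16 genes of the epithelial and mesenchymal adhesion switch, 3 were higher and 5 lower. *Vim*, the intermediate filament vimentin, fell from 173, 188 and 187 CPM to 8.83, 12.8 and 8.85 CPM, with no overlap and a log2 fold change of -4.17 (SE 0.16). *Cdh1*, which encodes E-cadherin, fell from 541, 535 and 538 CPM to 271, 261 and 254 CPM, while *Cdh3*, P-cadherin, rose from 11.0, 12.9 and 12.4 CPM to 173, 150.0 and 136 CPM. Of 11 claudin genes tested, 5 were higher and 1 was lower, among them *Cldn7* at 5.14, 6.09 and 5.90 CPM in ESCs and 39.7, 38.5 and 45.0 CPM in D2PGCLCs. *Pecam1*, a surface gene of pluripotent and germ cells, rose from 116, 116 and 127 CPM to 355, 360.4 and 353 CPM. Of 37 collagen genes, 10 were higher and 5 lower (5 of 27 tested were higher with only the 6 samples in the fit). Relative to EpiLCs, 3 collagen genes were called higher in D2PGCLCs and 21 lower, where 11.0% and 14.4% of all genes were called. *Col18a1*, a basement membrane collagen, had the largest gain of CPM of any called gene, from 118, 119.6 and 135 CPM to 953, 867 and 924 CPM. Its EpiLC mean was already 869 CPM. Among laminin chains, with 2 of 10 higher and 3 lower, *Lama1* fell by 2.75 on the log2 scale and *Lamb1* rose by 1.51. Protocadherins were lower in 13 of 22 tested members and higher in none, and those of the gamma cluster share exons and therefore reads.

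Genes of the 2-cell stage, which mark a rare state of ESC cultures, were mostly lower in D2PGCLCs. Their summed level over the 12 members found was between 3.90 and 4.78 CPM in ESCs, between 34.7 and 52.6 CPM in EpiLCs and at most 0.55 CPM in D2PGCLCs, and 9 of 10 tested members were lower. That count came to 5 without D2PGCLC replicate 1 and to 4 of 4 tested with only the 6 samples in the fit, where fewer members passed the filter, and the Zscan4 genes in it are near-identical copies. *Zscan4c* measured 1.06, 0.701 and 0.838 CPM in ESCs and 0.184, 0.179 and 0.0300 CPM in D2PGCLCs.

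Some genes were close to unread in one of the groups. In ESCs, 408 called genes had at most 3 reads in every library, and in D2PGCLCs 281 had, but only 13 and 8 of these reached a mean of 100 reads in the other group. *Rbm46*, an RNA-binding protein gene of germ cells, had no read in ESCs and 8.49, 8.99 and 7.53 CPM in D2PGCLCs, which makes it at least 73.3-fold higher against 3 reads per library, with 1.18 CPM in EpiLCs. *Igf1*, the insulin-like growth factor, had no read in ESCs either and was at least 61.8-fold higher by the same limit, at 7.26, 7.17 and 6.66 CPM. *Wnt7b*, a WNT ligand, went from 0.109, 0 and 0.101 CPM to 26.1, 36.4 and 21.4 CPM, with 0.376 CPM in EpiLCs, and *Chdh*, the choline dehydrogenase of mitochondria, from 0.255, 0.0438 and 0.0335 CPM to 22.7, 27.0 and 17.0 CPM, with 0.464 CPM in EpiLCs. *Cyp1b1*, a cytochrome P450 gene, had 1 read in ESCs and 2418 in D2PGCLCs, a CPM ratio of 2063 (95% exact counting interval 370 to 81498). In the other direction, *Srarp* had 9.41, 9.99 and 10.5 CPM in ESCs and no read in D2PGCLCs, at least 103-fold lower. *Fgf10*, a ligand of epithelial FGF receptors, fell from 22.1, 25.0 and 18.6 CPM to 0, 0.0717 and 0.0900 CPM. *Dmgdh*, which oxidizes dimethylglycine, fell by 6.25 on the log2 scale and *Bhmt2*, a homocysteine methyltransferase gene, fell by 5.88. *Crxos*, a homeobox gene of ESCs, went from 132, 125 and 143 CPM to 1.59, 2.29 and 1.62 CPM. The most abundant genes with a log2 fold change under 0.1 in size were *Npm1*, *Ncl*, *Hspa8*, *Eif4a1* and *Atp5b*, with log2 fold changes between -0.05 and 0.10.

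**Figure D5:**
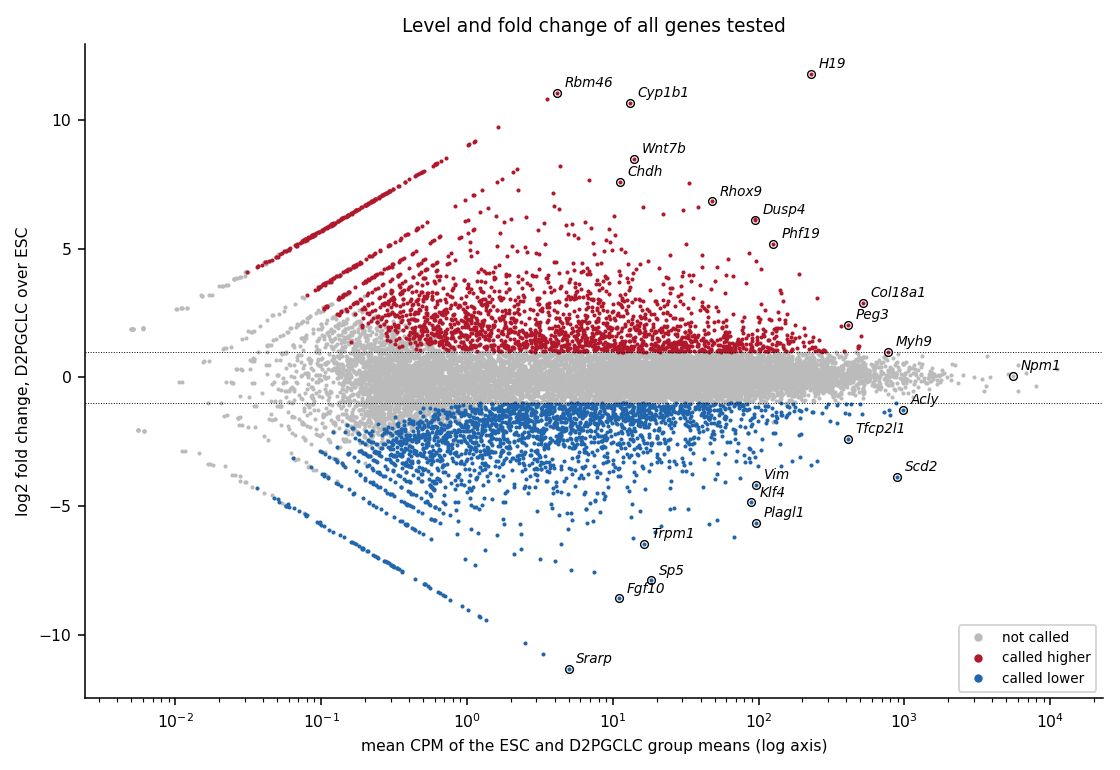
Log2 fold change of all 18090 genes tested against their mean CPM on a log axis, with called genes in red (higher) and blue (lower), dotted lines at 1 and -1, and named genes ringed. Most abundant genes lie between the lines, *H19* and *Scd2* are among the abundant genes beyond them, and the slanted rows of points at the left are genes without or nearly without reads in one of the groups, whose fitted fold change depends on the prior count and is no bound.

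Called genes were spread over the genome with some unevenness. On the X chromosome 123 of 684 genes tested were higher (18.0%) and 80 lower (11.7%), against 11.4% and 12.7% of autosomal genes. Chromosomes 12 and 13 had 17.3% and 17.5% of their genes lower. Of 679 lincRNA genes, 24.3% were lower and 13.8% higher, against 12.2% and 12.6% of protein-coding genes, and *Neat1*, the RNA scaffold of paraspeckles, fell from 94.1, 83.9 and 91.6 CPM to 24.5, 21.8 and 17.9 CPM. Of the 4 bins of genes by exon length, the shortest was higher in 9.48% and lower in 14.7%, and the longest in 14.0% and 8.49%. These shares are descriptions with no test, and exon length, biotype and depth of counts go together across genes.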

How the data were processed

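RNA was sequenced from mouse ESCs, EpiLCs and D2PGCLCs, and later PGC-like cells, with a stranded library kit, and the authors deposited raw counts per gene. The submitters' processing notes name Trim Galore, FastQC, STAR and mm10. The counting step, its strand setting and the annotation release are not given in the sources used here, and all 55536 gene IDs were matched to GENCODE M21 (GRCm38) for names and positions. Reads of the transgenes and of the endogenous genes share the deposited counts.

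Counts were tested with edgeR 4.0.16 in R 4.3.3. Genes that passed filterByExpr (minimum count 10) were scaled by TMM and fitted with 1 coefficient per group over all 15 samples, so that the spread was estimated from every group, and the quasi-likelihood test of D2PGCLC minus ESC was adjusted by Benjamini-Hochberg over 18090 genes. Calls needed a log2 fold change beyond 1 in either direction as well as an adjusted p below 0.05. Fold changes against groups without reads were bounded with 3 counts per library, and intervals of ratios cover counting error only. On simulated counts of 17479 genes for this comparison, 67 of 67, 63 of 64 and 69 of 69 genes were recovered at log2 fold changes of 1.5, 2 and 3, and 4 unchanged genes were called. Changes were simulated only in genes above a floor of mean counts, with the spread of the same fit. Recovery among genes with few reads was therefore not tested.

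Genes named outside the lists and families were the 12 highest and 12 lowest fold changes among called genes with a mean of 100 counts and no overlap, the 8 largest gains and losses of CPM, the 5 most abundant long noncoding RNAs in each direction, and the 5 most abundant genes with a log2 fold change under 0.1 in size. The members and lists were chosen with earlier results of these data known, and gene lists are described by counts and medians with no test. Alternatives were DESeq2 1.42.0, other scalings, filters, cutoffs and sets of samples, the replicate number as a block, and leaving out each of the 6 samples. Tables and plots were made with pandas 2.3.3 and matplotlib 3.10.9 in Python 3.11.15.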

Additional observations from a re-analysis of the deposited data

How the results depend on the processing

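The counts of genes called higher (2113) and lower (2290) stayed within 1.5 times under DESeq2 (2152 and 2443), DESeq2 size factors (2081 and 2315), library totals alone (1980 and 2419), no filter (2194 and 2406), the 6 samples alone (1833 and 2280) and a fit without the first D6PGCLC sample (2254 and 2513). Leaving out 1 sample at a time gave 1951 to 2051 higher and 2026 to 2307 lower. A mean of at least 100 counts, which tests fewer genes, gave 959 and 1052, adjusted p alone gave 4633 and 4237, and glmTreat against a log2 fold change of 1 gave 1328 and 1363. Under adjusted p alone, 28.9% of X-linked and 25.4% of autosomal genes were higher, 24.9% of protein-coding and 26.8% of lincRNA genes were lower, so that the gaps between the shares narrowed. With the window before the start alone, 52.9% of called germline genes and 6.86% of all genes held an E-box, while 11.8% and 2.13% held the E2F letters.

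A replicate block in the fit gave 2076 higher and 2296 lower genes, and of the genes named in the text *Mthfd2* alone lost its call (log2 fold change 0.98) while none was gained. The labels do not say what a number shares. The deviations of same-numbered ESC and D2PGCLC samples correlated at -0.01659, 0.02188 and 0.08827, and 1 of 3 ESC samples correlated best with its own number, a hint from the data and not the design.

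Calls of 19 of the 192 named genes tested were lost under at least 1 alternative, and 1 was gained. Calls that turned on leaving out 1 of the 6 samples are given beside the genes. The stricter glmTreat was applied only to the counts of all genes and not to single named genes. A named gene that a filter dropped was not counted as lost, so more calls may be fragile. *Ldha* was also lost with DESeq2 (adjusted p = 0.0795), and with no filter on low counts *Rnf43* (edgeR adjusted p = 0.082), *mt-Nd3* (edgeR adjusted p = 0.0534) and *Stard4* (log2 fold change -0.9998) were lost. Library totals alone took *Bmp4*, *Cish*, *Igf2r* and *Mthfd2* under 2-fold (log2 fold changes of 0.98, 0.98, 0.97 and 0.97), and the fit without the first D6PGCLC sample did so for *Hsf2bp* (-0.999) and *Stard4* (-0.9953). No called gene named in the text changed sign under any of them. DESeq2 size factors moved the median log2 fold change of all genes by -0.0124 and library totals by -0.055. Of 488 medians of the 61 lists under alternatives, 127 moved by more than the SD over the D2PGCLC replicates. The depth limits genes near 3 reads per library, for which fold changes are poorly known.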

Other observations

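Of 31 glutathione transferase, peroxidase and synthesis genes tested, 7 were higher and 8 lower. *Gpx4*, the peroxidase that removes lipid peroxides, measured 292, 268 and 317 CPM in the 3 ESC samples and 627, 722 and 701 CPM in the 3 D2PGCLC samples, and rose by 1.22 on the log2 scale (SE 0.12). The transferase gene *Gstm1* rose by 1.65, *Gstm3* by 2.68 and *Gstm5* by 3.46, whereas *Gpx2*, a peroxidase gene of epithelia, fell from 17.8, 16.2 and 19.2 CPM to 1.01, 0.788 and 0.960 CPM. The transferase genes have close paralogs whose reads may be split between them. Of 285 solute carrier genes, 48 were higher (16.8%, where 11.7% of all genes were) and 47 lower (16.5%, against 12.7%). *Slc39a14*, a transporter of zinc and other metals, rose from 26.3, 25.0 and 25.3 CPM to 202, 162 and 184 CPM, and *Slc6a8*, the creatine transporter, fell from 172, 178 and 156 CPM to 22.3, 16.3 and 20.8 CPM, both with no overlap. Among 36 cytochrome P450 genes, 7 were higher (4 without ESC replicate 1) and 9 lower (4 of 20 tested with only the 6 samples in the fit), and *Cyp2s1* fell by 3.21 on the log2 scale.

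Immediate early and heat shock genes were also split, with 6 of 17 higher and 3 lower. *Zfp36*, which promotes decay of AU-rich mRNAs, rose from 3.94, 2.94 and 2.95 CPM to 16.7, 16.8 and 13.9 CPM and *Jun* by 1.25 on the log2 scale, while the heat shock gene *Hspa1b*, a near-identical copy of *Hspa1a*, fell from 10.4, 7.41 and 10.8 CPM to 2.67, 2.29 and 1.44 CPM. T-box genes were lower in 5 of 10 members and higher in 1, *Tbx4*, which rose from 0.657, 0.789 and 0.570 CPM to 6.25, 6.31 and 4.29 CPM. Integrins were higher in 5 of 25 and lower in 4 (2 without ESC replicate 2), and beside *Itgb3* the chain gene *Itga9* rose by 2.11 and *Itgal* fell by 2.14. Among genes of retinoic acid, a signal of meiotic entry in germ cells, 3 of 16 were higher and 2 lower (1 without ESC replicate 3 or D2PGCLC replicate 3). Those shares were 18.8% and 12.5%, against 11.7% and 12.7% of all genes. *Cyp26a1*, which degrades retinoic acid, went from 0.0730, 0 and 0.0670 CPM to 0.827, 1.22 and 1.47 CPM. Of 14 genes of serine, glycine and threonine use, *Mthfd2* alone was called higher (1.03, with 401, 232 and 519 CPM in D2PGCLCs and 188, 178 and 199 CPM in ESCs), 3 were higher without D2PGCLC replicate 2, and the call of *Mthfd2* was lost without ESC replicate 2, D2PGCLC replicate 1 or D2PGCLC replicate 3.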
